A study of Mus musculus with 32 samples.

Results

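Shank, Homer and postsynaptic scaffold genes were followed over all arrays of the study as 9 genes: Shank1, Shank2, Shank3, Homer1, Homer2, Homer3, Dlg2, Dlg4 and Dlgap1. They are 9 of the 19938 genes that have a probe set of their own, that is, a probe set to which the platform's annotation gives that gene as its only name. Where a gene had several such probe sets, the one with the highest mean log2 intensity over the 32 arrays was taken, and no filter on low values was set, so all 9 genes were measured on every array. The mice were 5 Fmr1-KO mice, without FMRP, a protein that binds mRNAs, and 5 WT mice, all C57BL/6 congenic, and 3 Tsc2+/- mice, which keep 1 working copy of the gene for tuberin, with 3 WT mice, all on a mixed background of which C57BL/6J is one part. Each mouse was 8 to 10 weeks old and gave cerebellum and whole blood, and 250 ng of RNA of each went on 1 Affymetrix Mouse Gene ST 1.0 array. Tsc2+/- mice carry 1 lost copy because the loss of both is lethal to the embryo.

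At an excitatory synapse the postsynaptic density is built from layers of scaffold proteins. PSD-95, the product of Dlg4, and its relative PSD-93, the product of Dlg2, hold glutamate receptors and channels at the membrane, the SAPAP proteins such as that of Dlgap1 link them to the Shank proteins below, and Homer proteins tie Shanks to group I metabotropic glutamate receptors and to calcium channels of the inner membranes. Many of the mRNAs of these proteins are known targets of FMRP, and the strength of the Homer link to the receptors is known to be altered in Fmr1-KO forebrain. Changes in SHANK genes are a known cause of autism in people. Whole blood has no synapses, and it stands here as the tissue against which the cerebellum was set.

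The 3 Homer genes have distinct sequences before their start sites. They were picked for display after the Homer members were seen to differ in the comparisons below. A link between these sequences and the levels was not tested. RefSeq promoter windows on the GRCm38.p6 build matched 7 of the 9 members, with 14 windows in all. Each window printed here holds the 250 bases before a start site, on the strand of the gene. In capitals stand TGACG, the core of the site of the activity-regulated factor CREB, and GGGCGG, the GC box of Sp1, on either strand.
Homer1 (chr13:93303507-93303756, plus strand): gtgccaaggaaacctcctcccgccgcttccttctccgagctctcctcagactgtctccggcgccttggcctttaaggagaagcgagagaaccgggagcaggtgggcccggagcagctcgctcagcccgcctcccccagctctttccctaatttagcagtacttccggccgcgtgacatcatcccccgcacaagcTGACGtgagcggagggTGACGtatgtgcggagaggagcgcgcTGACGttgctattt
Homer2 (chr7:81706926-81707175, minus strand): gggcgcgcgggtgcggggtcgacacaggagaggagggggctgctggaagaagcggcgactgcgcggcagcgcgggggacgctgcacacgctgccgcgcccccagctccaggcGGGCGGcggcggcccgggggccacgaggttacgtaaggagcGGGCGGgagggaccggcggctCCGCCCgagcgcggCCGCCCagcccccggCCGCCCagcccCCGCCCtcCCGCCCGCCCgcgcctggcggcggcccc
Homer3 (chr8:70282749-70282998, plus strand): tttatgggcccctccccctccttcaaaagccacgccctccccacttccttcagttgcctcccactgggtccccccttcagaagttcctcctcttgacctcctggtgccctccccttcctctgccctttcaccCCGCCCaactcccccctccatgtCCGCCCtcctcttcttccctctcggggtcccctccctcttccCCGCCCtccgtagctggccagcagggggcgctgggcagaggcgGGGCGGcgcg
RefSeq has a second start for Homer1 and for Homer2, whose windows hold 0 TGACG and 0 GC boxes. The Homer1 window printed here holds 3 TGACG matches, which begin 56, 40 and 14 bases before the start, and 0 GC boxes. The Homer2 window printed here holds 8 GC boxes, of which the last pair overlap, and 0 TGACG. The Homer3 window holds 4 GC boxes and 0 TGACG. Among all 32851 promoter windows of this length, TGACG is found in 17.8% and GGGCGG in 32.7%. Of the 14 windows of the members, 2 hold TGACG, 1 each of Homer1 and Dlg4, and 4 hold a GC box. The full CREB site TGACGTCA, found in 1.55% of all windows, is in none of the 14. These matches are letters in a window, and binding was not measured.

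The level of a probe set is its intensity, a brightness on the linear scale, and log2 intensities were compared with limma. The median intensity of an array was 181 to 257 in cerebellum and 134 to 186 in blood. Intensities of 1035 probe sets of olfactory receptor genes, which neither tissue is known to use much, served as a background, and a member was called within background in a group where its median was under their 95th percentile, which was 163 to 334 across the 8 groups. Markers of granule cells (7 of 7) and of Purkinje cells (4 of 4 measured) were above that background in each cerebellum group and at 0 of 7 and 0 of 4 in each blood group, while the 5 T cell markers were above it in each blood group and 0 of 5 in each cerebellum group. Of the 4 measured markers of forebrain neurons 2 to 3 were above background in each cerebellum group and 2 in each blood group. Their summed intensity was 9896 to 16130 in cerebellum and 579.5 to 1152 in blood. Summed choroid plexus markers varied in cerebellum of the Tsc2 experiment. They were 879.6 in Tsc2+/- mouse 1 and 639.4 in WT mouse 2, against 7088 to 15376 in the other mice. The cause was not tested. Fmr1 itself averaged 261 in Fmr1-KO cerebellum against 857.5 in WT cerebellum and 221 in Fmr1-KO blood against 549 in WT blood, with no overlap in either tissue. Tsc2 averaged 822 in Tsc2+/- cerebellum against 1137 in WT cerebellum with no overlap, and 724 in Tsc2+/- blood against 827 in WT blood with overlap. The cerebellum arrays of Fmr1-KO mouse 1 and of WT mouse 1 of the same experiment lay apart from their groups. On that of Fmr1-KO mouse 1 the olfactory receptor probe sets were brighter, with a median of 177.5 and a 95th percentile of 577, where the other 4 Fmr1-KO cerebellum arrays had 95th percentiles of 188 to 271, and Shank3, Homer1 and Homer2 lay under the 95th percentile of that array.

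**Figure D1:**
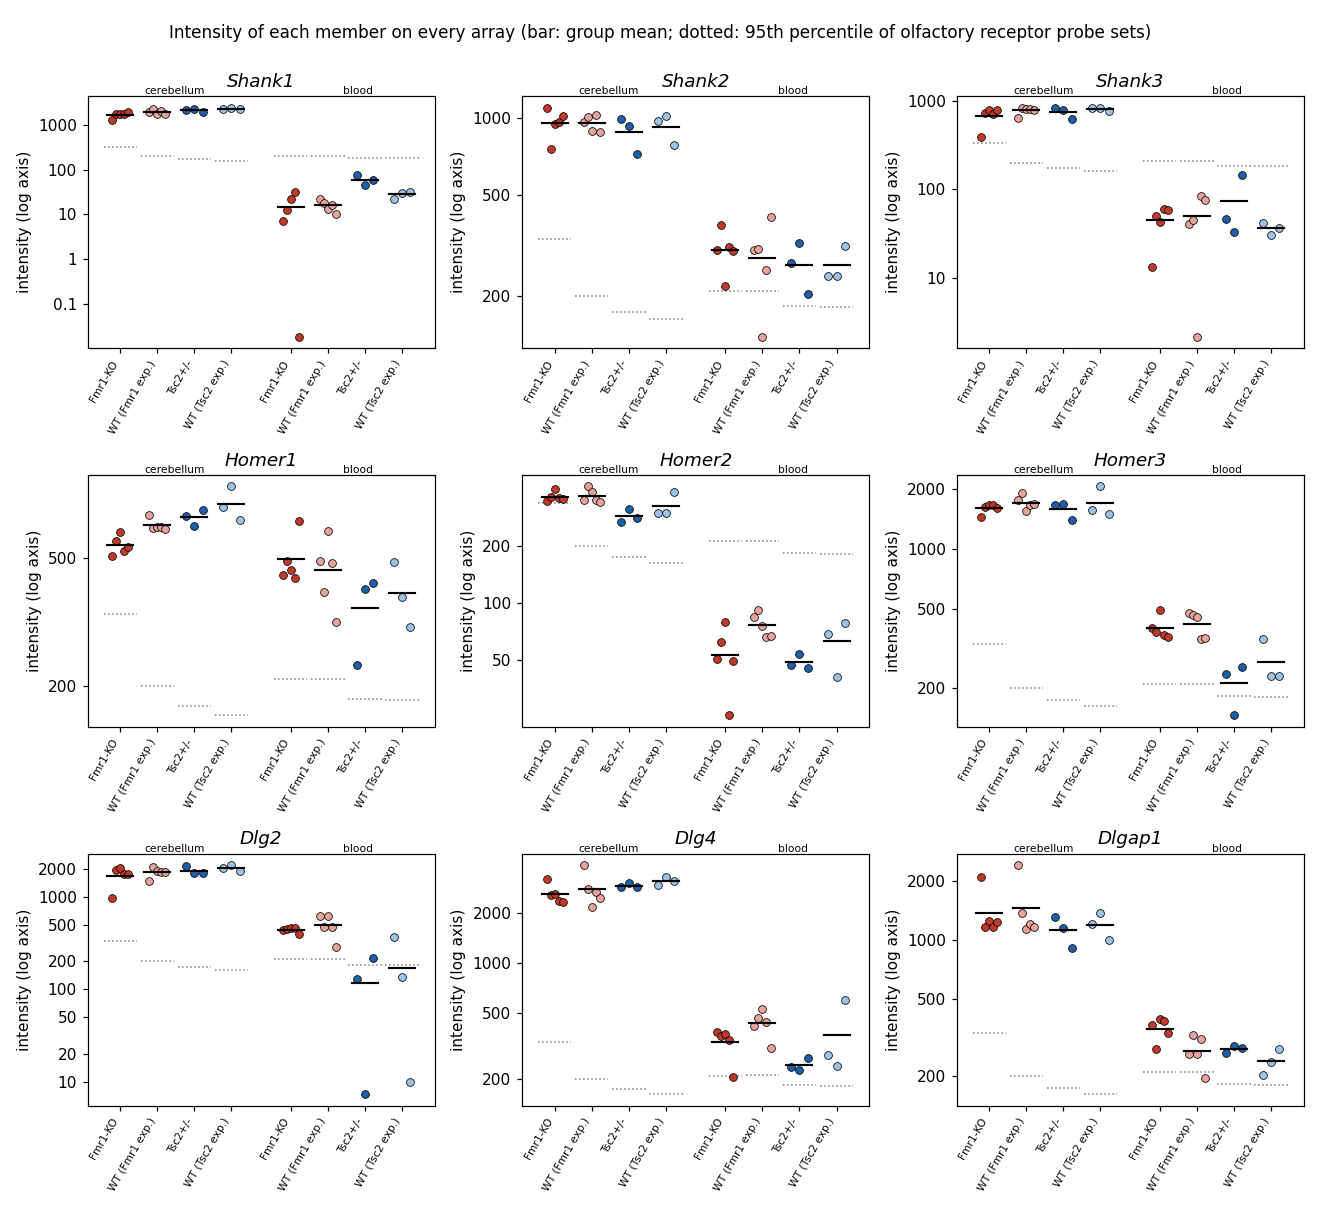
Intensity (log axis) of each member on every array, with 1 point for each mouse, the group mean as a bar and the 95th percentile of olfactory receptor probe sets of the group as a dotted line. In all 9 genes the 4 cerebellum means lie above the 4 blood means, and Homer1 is the gene in which the tissues come closest.

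All 9 members were higher in cerebellum than in blood in both experiments. In the Fmr1 experiment they passed limma's test with tissue and genotype as terms at an adjusted p under 0.05 as 9 of 9, where 51.8% of all 35556 probe sets did so upwards and 20% downwards. In the Tsc2 experiment they passed as 9 of 9, where 31% of all probe sets did so upwards and 26.4% downwards, and all 9 were without overlap, as 23.6% of all probe sets were upwards. The median log2 difference of the members, cerebellum minus blood, was 2.17 in the Fmr1 experiment, where the median of all probe sets was 0.52, and 2.80 in the Tsc2 experiment, where the median of all was 0.03. All differences are from bulk tissue, in which fewer cells of a type and less RNA per cell cannot be told apart.

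The Shank genes, whose proteins are the deepest layer of the scaffold, include Shank1 and Shank3, both well above background in cerebellum and within it in blood. Shank1 read 1300, 1782, 1846, 1838 and 1950 in the cerebellum of the 5 Fmr1-KO mice and 1990, 2284, 1758, 2108 and 1837 in that of the 5 WT mice, while in blood it read 0.0181 to 32.1 in Fmr1-KO mice and 10.3 to 22.8 in WT mice. Its difference was 7.84 (standard error 0.96) in log2 units in the Fmr1 experiment and 5.81 (standard error 0.22) in the Tsc2 experiment, and since its blood values are within background the size of these folds depends on values close to 0. Shank3, the Shank gene best known from Phelan-McDermid syndrome, averaged 679 ± 167 in Fmr1-KO cerebellum and 777 ± 79.0 in WT cerebellum (SD, n = 5 each), and it was within background in all 4 blood groups, at 2.18 to 144. Its log2 difference was 4.36 (standard error 0.51) in the Fmr1 experiment and 4.05 (standard error 0.32) in the Tsc2 experiment. Shank2 differed less between tissues. It read 760 to 1103 in Fmr1-KO cerebellum and 881 to 1031 in WT cerebellum, against 219 to 380 in Fmr1-KO blood and 139 to 411 in WT blood, a log2 difference of 1.76 (standard error 0.15), and 1.78 (standard error 0.14) in the Tsc2 experiment.

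The Homer genes ranged from a log2 difference of 2.56 in Homer2 down to 0.33 in Homer1 in the Fmr1 experiment. In the Tsc2 experiment they ranged from 2.80 in Homer3 down to 0.95 in Homer1. Homer3, the Homer protein known to be strong in Purkinje cells, read 1397 to 2063 over all 16 cerebellum arrays and 146 to 491 over all 16 blood arrays. Its log2 difference was 2.02 (standard error 0.08) in the Fmr1 experiment and 2.80 (standard error 0.17) in the Tsc2 experiment. Homer2 read 266 to 410.1 in cerebellum and stayed within background in all 4 blood groups at 25.6 to 92.1, with differences of 2.56 (standard error 0.16) and 2.49 (standard error 0.16).

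Homer1, whose gene gives both the long scaffold form and the short activity-induced form Homer1a, was the member with the least difference between the tissues. It read 506, 565, 602, 527 and 540 in Fmr1-KO cerebellum and 680, 618, 622, 623 and 614 in WT cerebellum, against 442, 488, 459, 435 and 651 in Fmr1-KO blood and 490, 392.4, 607, 483 and 316 in WT blood. The tissues overlapped in this experiment, and Homer1 is the exception among the 9 members, of which 8 did not overlap where 27.6% of all probe sets did not overlap upwards. Its log2 difference was 0.33 (standard error 0.11, limma adjusted p = 0.011), which lies under the shift of 0.52 that the median probe set showed between the same arrays. With arrays centred on their median the Homer1 value turned to -0.22, and after a further quantile normalization of each tissue on its own it was 0.21, and neither passed. In the Tsc2 experiment, where the median shift was 0.03, it read 628 to 704 in Tsc2+/- cerebellum and 655 to 833 in WT cerebellum, against 233 to 417 in Tsc2+/- blood and 306 to 487 in WT blood, and the difference of 0.95 (standard error 0.16, limma adjusted p = 0.00036) passed.

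The membrane-near scaffolds Dlg2, Dlg4 and their SAPAP partner Dlgap1 were all higher in cerebellum. Dlg4 read 2156 to 3875 over the cerebellum arrays and 206 to 594 over the blood arrays, with a log2 difference of 2.83 (standard error 0.14) in the Fmr1 experiment and 3.39 (standard error 0.20) in the Tsc2 experiment. Dlgap1 read 909 to 2413 in cerebellum and 198 to 391 in blood, with differences of 2.17 (standard error 0.16) and 2.16 (standard error 0.13). Dlg2 read 980 to 2215 in cerebellum. In blood it read 284 to 625 in the Fmr1 experiment and 7.32 to 372 in the Tsc2 experiment, its medians being within background in Tsc2+/- and WT blood there, so the same gene gave a difference of 1.93 (standard error 0.14) in the Fmr1 experiment and 4.86 (standard error 0.93) in the Tsc2 experiment.

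For 3 genes further probe sets of their own were on the array, and their tissue differences were unlike those of the chosen ones. The chosen Dlgap1 probe set is annotated to cDNAs without a RefSeq mRNA, while the other one holds 4 RefSeq mRNAs. That other probe set read 1473 to 2905 in cerebellum and 0.0128 to 21.6 in blood, a log2 difference of 8.64 in the Fmr1 mice and 7.51 in the Tsc2 mice. The chosen Shank2 probe set is annotated to 1 predicted mRNA, while another holds 2 RefSeq mRNAs and read 492.5 to 733 in cerebellum and 0.00619 to 61.4 in blood, a difference of 6.18 in the Fmr1 mice and 4.80 in the Tsc2 mice. The other Homer2 probe set gave 4.80 and, in the Tsc2 mice, 3.71. It read 149.1 to 327.7 in cerebellum and 0.02171 to 40.25 in blood. It was within background in every blood group and also in Fmr1-KO and Tsc2+/- cerebellum, so the size of its differences depends on low values. Shank2 and Dlgap1 were above background in blood in the chosen probe sets and within it in all their others.

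**Figure D2:**
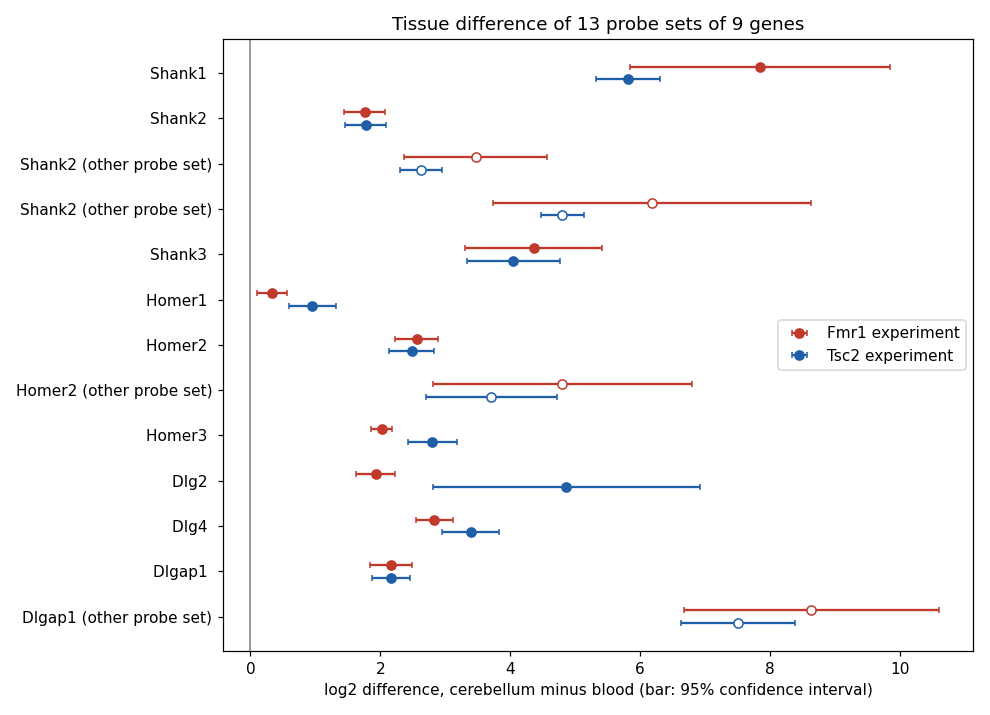
Log2 difference, cerebellum minus blood, of the 13 probe sets of the 9 genes in the Fmr1 experiment (red) and the Tsc2 experiment (blue), with filled points for the chosen probe sets, open points for the other ones and bars for 95% confidence intervals. Homer1 lies nearest to 0, at 0.33 and 0.95, and the other Dlgap1 probe set lies at 8.64 and 7.51 where the chosen one lies at 2.17 and 2.16.

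Partners of these proteins were set beside them as 52 measured genes of 4 lists. In the Fmr1 experiment 46 of the 52 were higher in cerebellum by limma's test at an adjusted p under 0.05 and 4 were lower, where 51.8% and 20% of all probe sets were, and in the Tsc2 experiment 45 were higher and 5 lower, where 31% and 26.4% were. Their median log2 difference was 2.38 in the Fmr1 mice, against 0.52 for all probe sets, and 2.21 in the Tsc2 mice, against 0.03. Of the MAGUK and PDZ scaffolds, relatives of PSD-95, 11 of 12 were higher and 0 lower in each experiment, and of the Homer ligands and partners 8 of 8 were higher in each. The highest differences of the partners were those of Cnksr2 (12.27), Anks1b (10.08) and Dnm3 (8.16) in the Fmr1 experiment, all within background in blood, so that the size and rank of these values depend on intensities close to 0. Cnksr2 is a scaffold that binds PSD-95, and Dnm3 is the dynamin tied to Homer. The lowest were those of Cript (-1.49), Dlgap4 (-1.05), the broadly expressed member of the SAPAP family, and Dynll1 (-0.69), a dynein light chain.

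In Fmr1-KO cerebellum no member passed the threshold set for the genotype comparisons, an unadjusted limma p under 0.01, which 0.197% of all probe sets passed. At an unadjusted p under 0.05 1 of the 9 did, Homer1, where 1.66% of all probe sets did. All 9 differences, Fmr1-KO minus WT, were below 0, where 46.2% of all probe sets had a difference below 0, with a median of -0.09 for the members and 0.02 for all, and with all mice kept Shank2 turned positive under a further quantile normalization of each tissue and Homer2 with the mean of its probe sets. Members share arrays, so their signs are not separate observations. With single mice left out 6 to 9 of the 9 were below 0, the 6 without WT mouse 1, where Shank2, Dlg4 and Dlgap1 were above it, and without the arrays of both mice 1 all 9 were again below 0. The 12 measured MAGUK and PDZ scaffolds were also below 0 as 12 of 12, and of all 52 partners 41 were, with 0 at p under 0.01.

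Homer1 was the member that separated the genotypes in cerebellum. Its intensity of 506, 565, 602, 527 and 540 in the 5 Fmr1-KO mice lay under the lowest of the 5 WT mice, which read 680, 618, 622, 623 and 614. Mouse 1 was the lowest of the Fmr1-KO group and the highest of the WT group, and the value of Fmr1-KO mouse 1 was within the background of its own array. The other 4 mice read 527 to 602 in Fmr1-KO cerebellum and 614 to 623 in WT cerebellum, without overlap. The averages were 548 ± 36.9 in Fmr1-KO cerebellum and 631 ± 27.2 in WT cerebellum (SD, n = 5 each). The log2 difference was -0.21 (standard error 0.09, 95% confidence interval -0.41 to -0.00), with a limma p of 0.049, an adjusted p of 1.0 over all probe sets and an exact permutation p of 0.0079, the smallest that 5 against 5 can give. No overlap on the low side was found in 0.25% of all probe sets and in 1 of the 9 members. Over the 21 alternatives tried the difference was -0.26 to -0.15. The p ranged from 0.0038 with the linear model without moderation to 0.22. Several alternatives could not move the difference from -0.21, so their sign is no separate check. They changed only the filter on dim probe sets, the variance model, the arrays fitted together, the replicate block or the test. The mean of all probe sets was the main fit again, as Homer1 has 1 probe set. With an added offset, other normalizations or mice left out the difference could move, and it stayed below 0. The methods' t-test gave p = 0.0053 with exact permutation p = 0.0079 beside it, and neither passed an adjustment over all probe sets.

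In the same cerebellum the other members overlapped between genotypes. Shank1 averaged 1743 ± 255 in Fmr1-KO and 1996 ± 211 in WT cerebellum (SD, n = 5 each), a log2 difference of -0.20 (95% confidence interval -0.50 to 0.10). Shank3 differed by -0.23 (-0.67 to 0.21) and Dlg2 by -0.15 (-0.60 to 0.30), and without both mice 1 these were -0.11 and -0.04. Without Fmr1-KO mouse 1 alone Shank3 gave -0.04 and Dlg2 0.04, and without both mice 1 Shank1 gave -0.10. On all arrays the intervals of Homer3 (-0.31 to 0.12), Homer2 (-0.23 to 0.21) and Shank2 (-0.27 to 0.26) were narrower than those of Shank3 and Dlg2. For Dlg4 the interval was -0.44 to 0.28 and for Dlgap1 -0.60 to 0.48. These intervals leave room for a change of either sign.

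**Figure D3:**
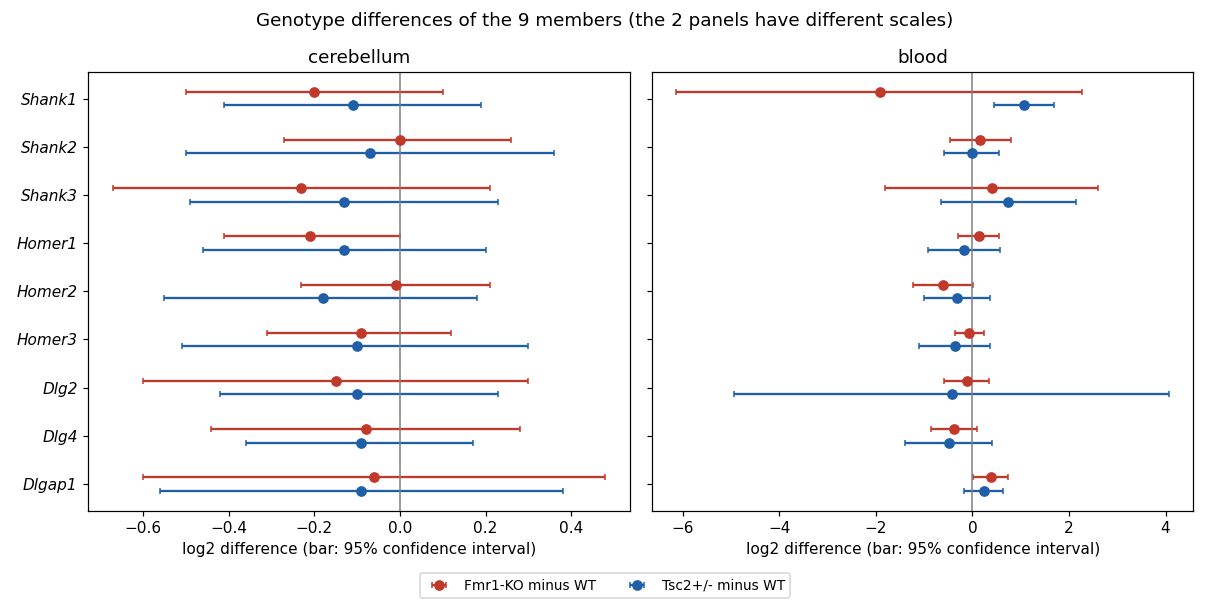
Log2 differences of the 9 members, Fmr1-KO minus WT (red) and Tsc2+/- minus WT (blue), in cerebellum (left) and blood (right), with 95% confidence intervals. The cerebellum values lie between -0.23 and -0.00, and in blood Shank1 lies at 1.06 (0.44 to 1.69) in Tsc2+/- mice and at -1.92 (-6.13 to 2.28) in Fmr1-KO mice, both within background.

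The arrays of both mice 1 moved several members in the same direction. Dlgap1 read 2088 in Fmr1-KO mouse 1 against 1157 to 1252 in the other 4 Fmr1-KO mice, and 2413 in WT mouse 1 against 1137 to 1369 in the other 4 WT mice. Dlg4 lay above the rest of its group in both (3182 and 3875), while Shank3 (389 and 638) and Dlg2 (980 and 1476) lay below the rest in both. Homer1 went apart, below its group in Fmr1-KO mouse 1 and above its group in WT mouse 1. Without both arrays the members listed at p under 0.01 stayed 0, and the Homer1 difference was -0.15 (limma adjusted p = 0.99).

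**Figure D4:**
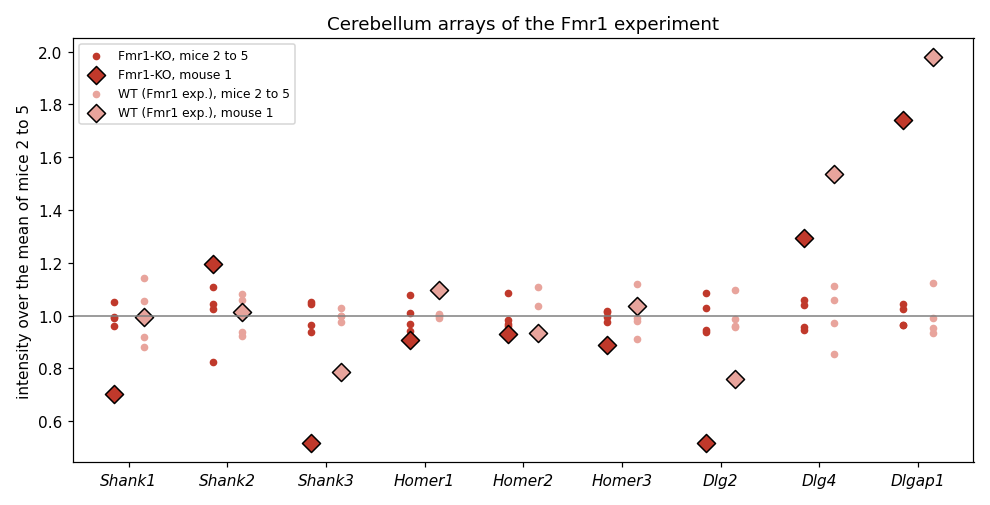
Intensity of each member in the cerebellum arrays of the Fmr1 experiment, divided by the mean of mice 2 to 5 of the same genotype, with diamonds for mouse 1 and dots for mice 2 to 5. Dlgap1 stands at 1.74 and 1.98 in the mice 1 of Fmr1-KO and WT and Shank3 at 0.517 and 0.786.

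In Fmr1-KO blood no member passed a limma p under 0.01, where 0.582% of all probe sets did. Dlgap1 came nearest, reading 367, 278, 391, 385 and 332 in Fmr1-KO blood against 260, 326, 261, 310 and 198 in WT blood. The groups overlapped, and the log2 difference was 0.38 (standard error 0.16, limma p = 0.039, adjusted p = 0.96, exact permutation p = 0.032). Its other probe set was within background in blood. Homer2 read 25.6 to 79.0 in Fmr1-KO blood and 65.8 to 92.1 in WT blood, all within background, with a difference of -0.61 (limma p = 0.054, exact permutation p = 0.040) that passed p under 0.01 in the fit over all 32 arrays (p = 0.0052). Dlg4 gave -0.38 (95% confidence interval -0.86 to 0.09), and the remaining intervals all held 0. Over both tissues together 0 of 9 members passed, where 0.304% of all probe sets did, and the genotype effect of no member differed between tissues at p under 0.01, where that of 0.537% of all probe sets did. Among the partners, the activity-induced gene Arc was the 1 listed, with averages of 48.8 in Fmr1-KO blood and 104 in WT blood (log2 difference -1.05, limma p = 0.0056, adjusted p = 0.96, exact permutation p = 0.016), both within background.

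In Tsc2+/- cerebellum no member passed a limma p under 0.01, where 1.12% of all probe sets did. All 9 differences, Tsc2+/- minus WT, were below 0, where 54.3% of all probe sets were. The median was -0.10 for the members and -0.02 for all. The sign count held under the alternatives that keep all mice, several of which could not move a difference. Without Tsc2+/- mouse 3 Shank2 and Dlgap1 and without WT mouse 2 Shank2, Homer3 and Dlgap1 were above 0. The values ran from -0.18 in Homer2 (95% confidence interval -0.55 to 0.18) to -0.07 in Shank2 (-0.50 to 0.36). Homer1 averaged 668 ± 38.5 in Tsc2+/- and 735 ± 90.7 in WT cerebellum (SD, n = 3 each), with overlap. No exact permutation test of 3 against 3 can give a p below 0.1. Of the 52 partners 43 were below 0 and 0 passed p under 0.01.

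In Tsc2+/- blood 1 of the 9 members passed, where 0.298% of all probe sets did. This was Shank1, which read 74.9, 45.7 and 59.5 in Tsc2+/- blood against 22.4, 31.0 and 32.3 in WT blood. The groups did not overlap, which held upwards for 4.36% of all probe sets, and the log2 difference was 1.06 (standard error 0.25, limma p = 0.0063, adjusted p = 1.0, exact permutation p = 0.1). All of these values were within background, the 95th percentile of olfactory receptor probe sets being 183 in Tsc2+/- blood and 181 in WT blood. The call was lost when Tsc2+/- mouse 1, Tsc2+/- mouse 3 or any of the 3 WT mice was left out, with values of 0.89, 1.05 and 0.90 to 1.16. In the same mice Shank1 in cerebellum gave -0.11, and the interaction of genotype with tissue was -1.17 (standard error 0.28, limma adjusted p = 1.0) and passed, where 0.596% of all probe sets passed p under 0.01. Without Tsc2+/- mouse 3 that interaction was -1.09 and no longer passed. Over both tissues together 0 of 9 members passed, where 0.436% of all probe sets did.

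The remaining members of Tsc2+/- blood had wide intervals, and that of Dlg2 was the widest. Dlg2 read 128, 7.32 and 219 in Tsc2+/- blood against 372, 134 and 10.0 in WT blood, a log2 difference of -0.43 (95% confidence interval -4.93 to 4.07). Within each genotype 1 mouse was close to 0, Tsc2+/- mouse 2 and WT mouse 3. The same 2 mice were the lowest in the summed intensity of 4 platelet markers, Pf4, Ppbp, Itga2b and Gp9, at 2306 and 1633, where the other 4 mice of the experiment had 21111 and 25393 (Tsc2+/-) and 32840 and 21815 (WT). Over the 6 mice the order of Dlg2 was that of the platelet sum but for these lowest 2, although 4 of the 6 Dlg2 values are under the 95th percentile of background of their group. In the blood of the 10 mice of the Fmr1 experiment the platelet sum was 32612 to 39406 and Dlg2 read 284 to 625. All 4 markers were above background in each blood group and 0 of 4 in each cerebellum group. The microglia list, of which 2 of 4 markers read above background in blood, was low in the same 2 mice (693.5 and 664), as were the neutrophil markers (1938 and 2896, against 6148 to 12569 in the other 4) and the NK cell markers (2174 and 1641, against 3444 to 4783). The B cell sums were 23680 and 15427, against 15334 to 16819 in the other 4. The monocyte sums were 3103 and 1351, against 1439 to 4520, so neither of these lists was low in both mice. The part of any of these cells in the Dlg2 level was not tested. Dlg4 had its highest blood value, 594, in WT mouse 3 of this experiment, where the summed T cell markers were 32768 against 10924 to 17516 in the other 5 mice, while in blood of the Fmr1 experiment the T cell sums were 5336 to 8653 and Dlg4 read 206 to 529. The part of T cells was not tested either.

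**Figure D5:**
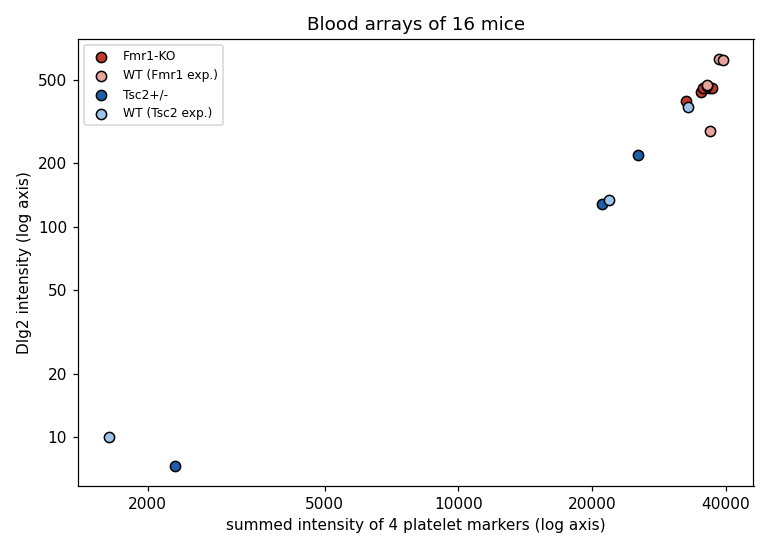
Dlg2 intensity against the summed intensity of 4 platelet markers in the blood arrays of 16 mice (both axes logarithmic), coloured by group. In the Tsc2 experiment 2 mice lie low on both axes, at 7.32 and 10.0 of Dlg2, and the 10 mice of the Fmr1 experiment lie at 284 to 625.

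Strain and experiment cannot be told apart between the WT mice of the Tsc2 experiment and those of the Fmr1 experiment. In blood, WT of the Tsc2 experiment against WT of the Fmr1 experiment, no member passed a limma p under 0.01, where 12% of all probe sets did. Homer3 read 353, 231 and 229 in WT mice of the Tsc2 experiment against 476, 465, 453, 355 and 358 in WT mice of the Fmr1 experiment. The groups did not overlap, which on the low side held for 5.77% of all probe sets, and the difference was -0.66 (standard error 0.20, limma p = 0.013, adjusted p = 0.090, exact permutation p = 0.018, the smallest that 3 against 5 can give). Dlg2 differed by -2.58 (95% confidence interval -5.04 to -0.13, limma p = 0.041, exact permutation p = 0.036) with the platelet sums given above beside it, and Shank1 by 0.84 (limma p = 0.017, exact permutation p = 0.054) within background. Without WT mouse 1 of the Tsc2 experiment both Homer3 (-0.86) and Dlg2 (-3.70) passed, and without WT mouse 1 of the Fmr1 experiment Shank1 (0.98) did. In cerebellum no member passed, where 1.29% of all probe sets did, although Shank1 read 2309, 2517 and 2299 in WT mice of the Tsc2 experiment and 1990, 2284, 1758, 2108 and 1837 in WT mice of the Fmr1 experiment, without overlap (log2 difference 0.26, 95% confidence interval -0.01 to 0.53, exact permutation p = 0.054 on log2 intensities), as 2.53% of all probe sets did upwards. Of the 52 partners in blood, 4 passed upwards and 3 downwards. Highest was Camk2b (2.53, exact permutation p = 0.036), which is within background in WT blood of the Fmr1 experiment. Lowest was the cortactin gene Cttn (-1.05, exact permutation p = 0.018). Agap2 (0.97, exact permutation p = 0.018), above background in both groups, was the 1 partner with a limma adjusted p under 0.05 (0.049). The genotype effects of the models, Tsc2+/- and Fmr1-KO, differed for no member at p under 0.01 in blood, where those of 0.509% of probe sets did, or in cerebellum, where those of 0.487% did.

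The order of the 8 group means put the 4 cerebellum groups first in each of the 9 genes. Of the 63 pairs of groups next to each other in these orders, 51 overlapped and 12 did not, where 7.8% of such pairs over all probe sets did not. The 12 were the step between the tissues in every gene but Homer1, Homer1 between Fmr1-KO cerebellum and WT cerebellum of that experiment, Shank1 between Tsc2+/- blood and WT blood of the Tsc2 experiment, both within background, and Homer3 and Dlg2 between Fmr1-KO blood and WT blood of the Tsc2 experiment, where genotype, strain and experiment cannot be told apart.

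Among the 16 cerebellum arrays the members did not follow one pattern. The Spearman correlations of pairs of members, which share arrays and, in part, the arrays of the mice 1, were 0.78 for Shank3 with Dlg2, 0.77 for Shank2 with Dlgap1 and 0.74 for Shank1 with Homer1, and -0.55 for Homer1 with Homer2. Without the arrays of the mice 1 Shank1 with Dlg4 was 0.90, where it was 0.56 with them. The genes most like each member by Spearman correlation over these arrays were Hipk2 (0.97) and Nacc1 (0.97) for Dlg4, Tll1 (0.96) and Mical3 (0.94) for Shank3, Larp1 (0.95) and Ptprn2 (0.94) for Shank1, and Camk1d (0.94) and St6galnac3 (0.93) for Homer1. They were Neurl1a (0.94) and Sned1 (0.91) for Shank2, Ppp1r12a (0.94) and Kdm5b (0.91) for Dlg2, Unc80 (0.93) and Lpp (0.92) for Dlgap1, Zfp111 (0.85) and Cnot2 (0.84) for Homer3, and Phldb2 (0.80) and Cemip (0.80) for Homer2. With each array taken as its deviation from its group mean, 2 of these 18 genes still ranked highest of 15404 to 15406 candidates. They were Sned1 for Shank2 (0.91) and, tied with Usp3, Ppp1r12a for Dlg2 (0.96). Others ranked lower, such as Camk1d at rank 92 for Homer1 (0.71), Mical3 at rank 182 for Shank3 (0.81), Zfp111 at rank 354 for Homer3 (0.70) and Phldb2 at rank 1801 for Homer2 (0.45).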

How the data were processed

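RNA of cerebellum and whole blood of 16 mice was measured on 32 arrays. Each deposited value is a linear intensity. Before deposit the authors quantile normalized the probes over all arrays and summarised them to probe sets with PLIER; per the labels the tools are PLIER and Affymetrix Power Tools, with versions not given in the sources used here. The 35556 probe sets have 1 gene name in 21789 cases, several in 1621 and none in 12146, and 21698 of the single names were brought up to date by gene number. They were log2 transformed without an offset. Groups came from the labels, and sex, given as female in the labels and male in the methods, entered no comparison. Members and lists were chosen with earlier results of these data known. In R 4.3.3, limma 3.58.1 (lmFit, eBayes) was fitted to all probe sets, with both tissue and genotype as terms where the tissues were joined, and with genotype only where they were not. The thresholds were an adjusted p (Benjamini-Hochberg) under 0.05 for tissue and, after the methods, an unadjusted p under 0.01 elsewhere. Single genes were compared by exact permutation of mice, all tests being two-sided, and the p-values of comparisons within a tissue measure the spread between mice. Named were the 9 members, the 3 highest and 3 lowest partners that passed in a comparison (in the tissue comparisons this was extended after their values were seen) and the 2 genes most like each member, among genes with a mean log2 of at least 7. The cerebellum and blood arrays are of the same mouse. The correlation of the 2 deviations of a mouse from its groups was -0.14 to 0.18, and limma's within-mouse correlation was 0.00817 in the Fmr1 mice and 0.0607 in the Tsc2 mice. For genotype, precision is set by how many mice there are. The main fits that join the tissues hold no mouse term, so both arrays of a mouse entered as separate values. Their p-values measure the spread between arrays. Intensities under 16, which are 6.21% of the total, make wide log2 differences out of narrow linear ones. The methods were tested on simulated data. Other normalizations, offsets, filters, variance models, probe set rules, blocks and left-out mice were tried. No column of the deposited table was left unused. Values of the study's quantitative PCR were not used here.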

Additional observations from a re-analysis of the deposited data

Results flagged for a closer look

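In 12 of the 36 member and group pairs tested, 1 array lay far from the rest of its group of 5 by the gap to the nearest mouse. For separate, normally spread values chance alone gives about 1 in 20 such arrays. In cerebellum all of these were mouse 1: in Fmr1-KO mice Shank1 (1300), Shank3 (389), Dlg2 (980) and Dlgap1 (2088), and in WT mice Shank3 (638), Homer1 (680) and Dlgap1 (2413). In blood they were Fmr1-KO mouse 5 for Shank1 (0.0181), Homer1 (651) and Dlg4 (206), Fmr1-KO mouse 1 for Shank3 (13.2) and WT mouse 3 for Shank3 (2.18). The Shank1 and Shank3 values in blood are within background. Members share arrays, so the 36 pairs are not separate draws and their count cannot be weighed against 1 in 20.

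The difference between tissues in the Tsc2+/- effect on Shank1 was -1.17 in log2 units by the interaction term (limma adjusted p = 1.0), with -0.11 in cerebellum and 1.06 in blood, where all 6 values were within background.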

How the results depend on the processing

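Of 2383 values of single members under the alternatives, 2337 counted as the same. For those that had passed this meant passing again with the same sign, whatever the size of the move. For those that had not, it meant still not passing and moving by less than the residual SD of the main fit. Some alternatives changed only the variance, the filter or the test, so the difference itself could not move under them. Another 22 that had not passed moved by more, 11 came to pass and 12 ceased to pass. The 1 left had passed and changed sign, Homer1 in cerebellum against blood of the Fmr1 experiment with arrays centred on their median (-0.22). Of the values that had not passed, 132 lay on the other side of 0. The 9 members called in each tissue comparison stayed at 9 or, without Homer1 in the Fmr1 experiment, at 8. The members listed were 1 in place of 0 in Fmr1-KO blood in the fit over all 32 arrays, and 1 in place of 0 in Fmr1-KO cerebellum with the linear model without moderation and with the methods' t-test. In Tsc2+/- blood they were 0 in place of 1 with dim probe sets left out, without moderation, over all 32 arrays, with the methods' t-test and with the replicate number as a block, and 0 to 1 with single mice left out. Between the WT groups in blood they were 1 in place of 0 with arrays normalized again within tissue, with dim probe sets left out and with an intensity trend, 2 over all 32 arrays, and 0 to 2 with single mice left out. The Tsc2 interaction listed 0 in place of 1 over all 32 arrays and 0 to 1 with single mice left out. In these cases the cause was not tested.

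The replicate numbers were not taken to pair the genotypes in the main fits. Deviations of same-numbered mice correlated at -0.11 to 0.12 in blood and -0.02 to 0.37 in cerebellum of the Fmr1 experiment and at -0.24 to 0.30 and -0.22 to 0.52 in the Tsc2 experiment. In cerebellum the 0.37 and the 0.52 were those of mouse 1, and mouse 3 of the Tsc2 experiment gave 0.40. Shared handling by number was not tested. With the number as a block Shank1 in Tsc2+/- blood was 1.06 and no longer passed, and with the mouse as a random or fixed block no call of the members changed. The alternative without the cerebellum arrays of both mice 1 was chosen after seeing the data. Brightness limits the members within background in blood, and the orders given there for Shank1 and Dlg2 rest on such values.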
